A study of Zea mays with 18 samples.

Results

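The mature zone of maize leaf 4 was compared with the meristem of leaf 4 in seedlings kept under chilled nights. The aim was to see how microRNA (miRNA) levels differ between the dividing base of such leaves and their mature tissue. The members are all miRNA entries of the authors' deposited table, 228 in number. Many entries carry the same values as another entry, and identical entries were counted once, which leaves 147 distinct profiles of 147 in the series, from 28 miRNA families. Each profile is named by all the miRNAs that share it, since the array does not tell them apart. The elongation zone between the 2 ends shows whether a change was stepwise or peaked on the way.

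The groups with chilling were the mature zone, the elongation zone and the meristem of leaf 4, from seedlings with nights at 4 °C. The groups without chilling were the same 3 zones from seedlings with nights at 20 °C. Both kinds had days at 25 °C, 16 h of day and 8 h of night, a light intensity of 15000 lux and 70% relative humidity. All plants were of the hybrid ADA313, and each group had 3 arrays that the labels call biological replicates. The labels do not state how long the chilling lasted, where the zones were cut or how many seedlings made up a replicate. The table holds miRNAs only, so the zones were not checked against protein-coding marker genes.

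A plant miRNA is cut from a hairpin precursor as a duplex of a 5p and a 3p arm. The arm that is mainly loaded into an ARGONAUTE protein, the guide, directs cleavage or silencing of transcripts with a matching site, and the other arm is mostly degraded. In grass leaves, cells divide in the meristem at the base, expand in the elongation zone and mature further up, and several conserved miRNA families target the transcription factors that act along this path.

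For each profile the authors deposited 6 averages on the log2 scale, 1 per group, and no value of a single array. The values printed for a zone are these averages of the authors. A difference of 1 on this scale is a doubling of the signal. The ANOVA p-value that the authors deposited, which covers all 6 groups, was used to work out the spread between arrays, and each difference is given with the standard error (SE) that follows from it and with an adjusted p from limma's moderated test (Benjamini-Hochberg over the 147 profiles, threshold 0.05). The within-group SD obtained this way was 0.34 at the median, with quartiles of 0.21 and 0.61. The entries in the table all have an ANOVA p of at most 0.040982 in the authors' deposited table, so every count refers to miRNAs already selected for differing somewhere among the 6 groups.

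Most profiles differed between the 2 ends of the chilled leaf. Of the 147 profiles, 109 passed the threshold for the mature zone against the meristem (74.1%), 40 of them higher (27.2%) and 69 lower (46.9%) in the mature zone. Since the members are the whole table, these shares are also the background. The largest rise was that of miR396c/d, with a difference of 4.71, and the largest fall was that of miR166n-5p, with a difference of -9.14. Of the 68 profiles in which at least 1 of the 2 averages reached log2 4, 17 rose, 42 fell and 9 did not pass. In 20 of these 42 falls the mature average was under log2 2, a level taken here as close to the lowest signal. The lowest average in the chilled leaf was 0.59, so such falls had little room left below them. Another 53 profiles were under log2 2 at both ends, and the 18 rises and 13 falls among them were small, between 0.23 and 0.98.

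The balance of rises and falls depended on how the group averages are scaled. As deposited, the median difference over all profiles was -0.39. It was -0.05 after quantile normalization of the 6 columns, where 54 profiles were higher and 45 lower, and 1.29 after subtraction of each column's median, where 90 were higher and 25 lower. The 40 rises all passed in the same direction under both scalings, and 22 of the 69 falls did so. Median subtraction raises every difference equally, since the medians of the chilled mature and meristem columns differ by -1.68. No rise could turn in this way, while every fall of a smaller size had to. The chilled mature column had a median of 1.55, with 91 profiles under log2 2. Both scalings kept the SD worked out from the deposited averages. The mixture of cell types differs along a leaf, and in tissue of this kind fewer cells of a type and less RNA per cell cannot be told apart.

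**Figure D1:**
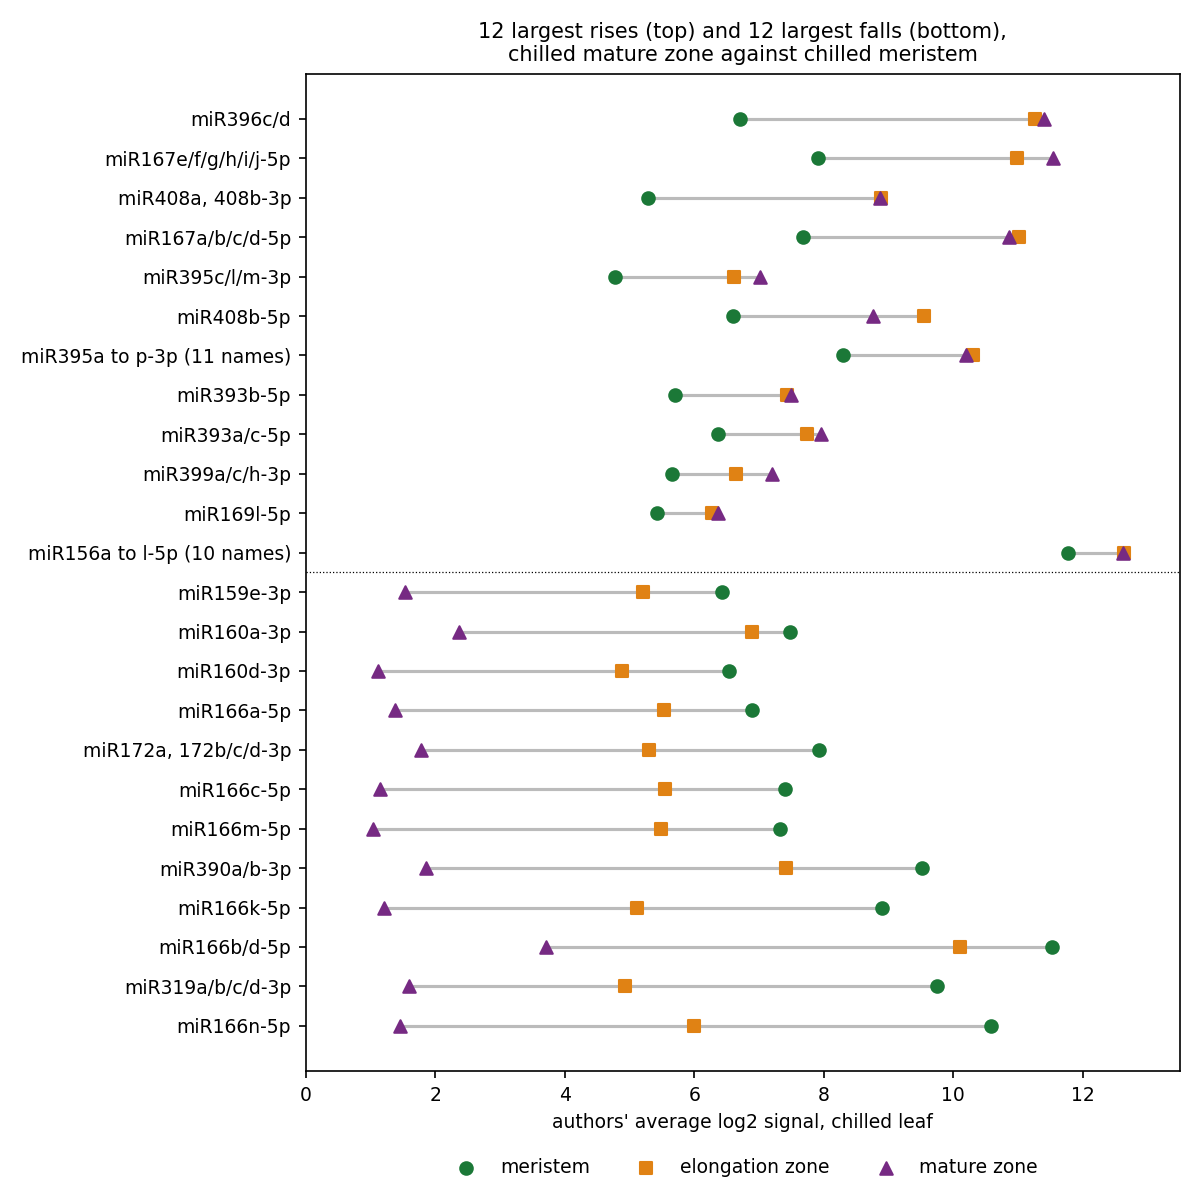
The authors' average log2 signal in the meristem (circles), elongation zone (squares) and mature zone (triangles) of the chilled leaf, for the 12 largest rises and the 12 largest falls from a level of log2 4 or more. In most risers the elongation zone lies near the mature zone, as in miR396c/d at 11.26 and 11.41, whereas 10 of the 12 fallers end under log2 2.

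Among miRNAs of growth regulators, miR396c/d rose most. The miR396 family targets growth-regulating factors (GRFs), which promote cell proliferation. Its miR396c/d profile stood at 6.70 in the chilled meristem, 11.26 in the elongation zone and 11.41 in the mature zone. The mature zone exceeded the meristem by 4.71 (SE 0.59, adjusted p = 1.29e-05), and the step into the elongation zone made up 4.56 of this (adjusted p = 3.73e-05). Other 5p profiles of the family had low signal, which cannot be set against that of miR396c/d, since probes differ in response. The miR396a/b-5p profile stood at 1.93 in the mature zone and 1.31 in the meristem, and miR396e/f-5p at 1.71 in the mature zone and 1.00 in the meristem. Of the 7 miR396 profiles, 2 rose, 2 fell and 3 did not pass.

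The 5p arms of miR167, which target auxin response factors, rose in both of their profiles. The profile of miR167e/f/g/h/i/j-5p stood at 7.91 in the meristem, 10.98 in the elongation zone and 11.54 in the mature zone, a difference of 3.63 between the ends (SE 0.33, adjusted p = 4.38e-07). The profile of miR167a/b/c/d-5p stood at 7.68, 11.02 and 10.86 in the same zones, a difference of 3.18 (SE 0.52, adjusted p = 0.000145). In both, the first step passed and the second did not (adjusted p = 0.144 and 0.804). A second auxin family, miR393, targets the TIR1 and AFB auxin receptors, and its 4 profiles all rose. Its miR393b-5p profile stood at 7.50 in the mature zone and 5.71 in the meristem (1.79, SE 0.55, adjusted p = 0.0108), and its miR393a/c-5p profile at 7.96 and 6.37 (1.59, SE 0.47, adjusted p = 0.00949). The 3p arms rose less, by 0.81 for miR393a-3p and 0.72 for miR393c-3p, and neither passed with the SD enlarged by 25% (adjusted p = 0.0627 and 0.0794).

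Rises were also found in families tied to nutrient supply, of which miR395 had 2 rises among 8 profiles and no fall, and miR399 had 3 rises and 6 falls among 11. The miR408 family targets copper proteins such as plantacyanin and laccases, and both of its profiles rose. The profile of miR408a and miR408b-3p stood at 5.28 in the meristem, 8.89 in the elongation zone and 8.87 in the mature zone (3.59, SE 0.69, adjusted p = 0.000534). The miR408b-5p arm stood at 6.60, 9.55 and 8.76 in the same order (2.16, SE 0.44, adjusted p = 0.000879). The miR395 family targets ATP sulfurylases and a sulfate transporter. Its 11 identical 3p members stood at 8.30, 10.31 and 10.20 (1.90, SE 0.35, adjusted p = 0.000404), and miR395c/l/m-3p at 4.77, 6.62 and 7.01 (2.24, SE 0.78, adjusted p = 0.0206, and 0.0627 with the SD enlarged by 25%). In the miR399 family, whose target PHO2 restrains phosphate uptake, the members miR399a/c/h-3p rose at both steps, with 5.65 in the meristem, 6.64 in the elongation zone and 7.20 in the mature zone (1.55, SE 0.21, adjusted p = 3.02e-05).

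Smaller rises were found in 2 further families of transcription factor regulators. The miR156 family targets SPL factors and keeps shoots in the juvenile phase. All 3 of its 5p profiles rose, and its main profile of 10 members stood at 12.62 in the mature zone and 11.78 in the meristem (0.84, SE 0.19, adjusted p = 0.00183). The miR169l-5p profile, of a family that targets NF-YA factors, stood at 6.37 and 5.42 (0.95, SE 0.21, adjusted p = 0.00181). In the same family miR169m/n/q-5p fell, with 1.34 in the mature zone and 3.08 in the meristem (-1.74), though this did not pass with median subtraction (-0.06, adjusted p = 0.851).

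The falls were led by miR166, whose 15 profiles all fell as deposited. The 3p guide of this family targets HD-ZIP III factors, which set the upper side of the leaf. Its 11 5p profiles had a median difference of -5.51, and its 4 3p profiles one of -1.77. The miR166n-5p level stood at 10.59 in the meristem, 5.99 in the elongation zone and 1.45 in the mature zone (-9.14, SE 0.25, adjusted p = 7.83e-13). The miR166b/d-5p profile stood at 11.52, 10.11 and 3.71 (-7.81, SE 0.48, adjusted p = 4e-09), with the larger log2 difference in the second step. The miR166k-5p profile stood at 8.90, 5.11 and 1.21 (-7.69, SE 0.32, adjusted p = 4.99e-11). Differences of -6.29, -6.26 and -5.51 were found for miR166m-5p, miR166c-5p and miR166a-5p, each with a mature level under log2 2. The guide miR166j/k/n-3p kept a high signal, at 9.24 in the mature zone and 11.95 in the meristem (-2.71, SE 0.42, adjusted p = 8.47e-05). With median subtraction 5 of the 15 differences of the family turned positive, among them those of miR166a-3p (0.07) and of the large profile of miR166e/f and 3p members (0.12), and with quantile normalization 2 did.

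Other families that act on leaf growth and identity fell from high meristem levels. The miR319a/b/c/d-3p profile, of a family that targets TCP factors and so affects the end of proliferation, stood at 9.75 in the meristem, 4.93 in the elongation zone and 1.59 in the mature zone (-8.16, SE 0.73, adjusted p = 4.32e-07). The shared profile of miR172a and miR172b/c/d-3p, which targets AP2-type factors, stood at 7.92, 5.30 and 1.78 (-6.14, SE 0.59, adjusted p = 7.57e-07). Its relative miR172e had a smaller fall, at 11.05, 8.57 and 7.74 (-3.31, SE 0.30, adjusted p = 4.38e-07). In the miR159 family, which targets GAMYB factors, the falls were unequal. The miR159e-3p level stood at 1.53 in the mature zone and 6.43 in the meristem (-4.90, SE 0.45, adjusted p = 4.38e-07), while the profile with the highest signal, miR159c/d-3p, stood at 11.96 and 12.65 (-0.69, SE 0.14, adjusted p = 0.000873). The last difference turned to 0.99 with median subtraction.

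Further falls were found among regulators of signalling. The miR390 5p arm guides cleavage of the TAS3 transcript, from which small RNAs against auxin response factors arise. The miR390a/b-3p profile stood at 9.52 in the meristem, 7.42 in the elongation zone and 1.85 in the mature zone (-7.67, SE 0.46, adjusted p = 3.45e-09), and its guide, miR390a/b-5p, at 11.31, 11.28 and 10.22 (-1.09, SE 0.21, adjusted p = 0.000577). With median subtraction the guide's difference turned to 0.59. Of the 5 miR160 profiles, all 3p arms of a family whose 5p arm targets auxin response factors, 4 fell. The miR160d-3p level stood at 1.12 in the mature zone and 6.54 in the meristem (-5.42), and miR160a-3p at 2.36 and 7.48 (-5.12). The miR394a/b-5p profile, which targets an F-box gene of the meristem, stood at 5.73, 5.52 and 1.27 along the leaf (-4.46, SE 0.96, adjusted p = 0.00136), and miR529-5p, which like miR156 targets SPL factors, at 5.27, 2.52 and 0.89 (-4.38, SE 1.14, adjusted p = 0.00414). The miR1432-5p level stood at 4.40, 3.07 and 1.02 (-3.38, SE 0.47, adjusted p = 3.11e-05).

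The profiles were next grouped by what their families target. Over all 147 profiles 27.2% rose and 46.9% fell, and the list counts are to be read beside these shares. Of the 70 profiles of leaf growth and identity 14 rose, 40 fell and 16 did not pass, with a median difference of -0.72 beside -0.39 over all profiles. These falls include all 15 miR166 profiles, and without that family the list's shares of rises and falls lay near those over all profiles. With median subtraction 17 of the 40 falls turned, and with quantile normalization 2 did. Of the 19 auxin profiles 9 rose, 7 fell and 3 did not pass, with a median of 0.02, and 1 fall turned with median subtraction. Of the 20 sulfate and phosphate profiles 6 rose, 6 fell and 8 did not pass (median -0.10), and 5 of these falls turned with median subtraction. Of the 7 copper profiles 3 rose, 2 fell and 2 did not pass (median 0.27). The falls were those of miR398a/b-3p and miR398b-5p, whose family targets copper/zinc superoxide dismutases. The fall of miR398a/b-3p did not pass with median subtraction (adjusted p = 0.801), nor that of miR398b-5p with quantile normalization (adjusted p = 0.107). The miR528a/b-5p signal was among the highest of all, at 12.26 in the mature zone and 12.38 in the meristem, and did not pass (-0.12, SE 0.19, adjusted p = 0.59).

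The remaining lists were small or low. Of the 12 NF-YA profiles 3 rose, 5 fell and 4 did not pass (median -0.75). The 4 small RNA machinery profiles are from miR162 and miR168, whose guides target DCL1 and AGO1. The miR168 guide, its 5p arm, is not among the entries. Of the 4 profiles 2 fell, both of them opposite 3p arms of miR168. These were miR168a-3p, at 8.57 in the mature zone and 9.56 in the meristem (-0.99, SE 0.22, adjusted p = 0.00183), and miR168b-3p, at 7.44 and 8.70 (-1.26, SE 0.53, adjusted p = 0.0453), and both turned positive with median subtraction (0.69 and 0.42), and neither passed with quantile normalization (adjusted p = 0.0843 and 0.146). The 2 miR162 profiles did not pass. Of the 14 profiles of miR482, miR2118 and miR2275, families known to trigger phased small RNAs, 5 rose and 6 fell, by at most 1.84, and none reached log2 4 at either end. With median subtraction 3 of the 5 NF-YA falls and 4 of the 6 trigger falls turned. With quantile normalization 1 NF-YA fall turned, that of miR169m-3p, which passed as a rise of 1.60 in place of -1.47 (adjusted p = 0.00432).

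**Figure D2:**
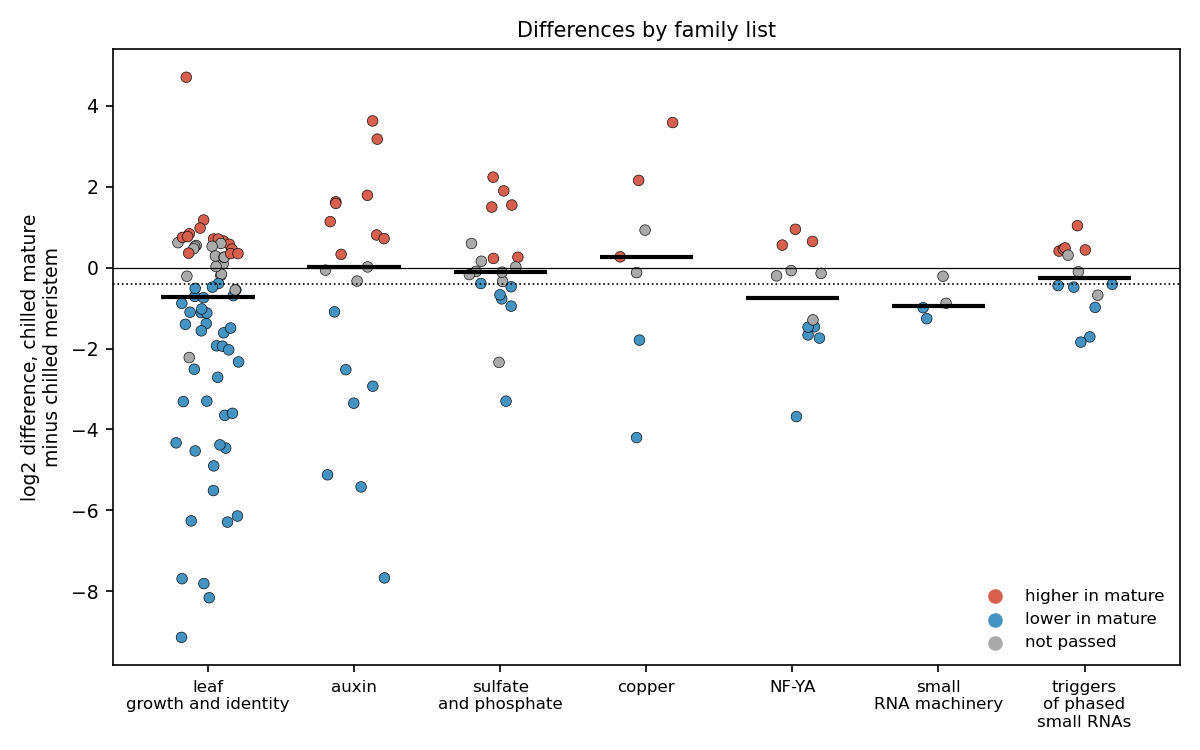
Differences of chilled mature minus chilled meristem on the log2 scale for each profile, by family list, with each list's median as a bar and the median over all profiles (-0.39) as a dotted line. The leaf growth and identity list reaches from -9.14 to 4.71, while all triggers of phased small RNAs lie between -1.84 and 1.04.

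The elongation zone showed at which step the levels moved. Between the elongation zone and the meristem 66 profiles passed (44.9%), 44 higher (29.9%) and 22 lower (15%) in the elongation zone. Between the mature and the elongation zone 108 passed (73.5%), 20 higher (13.6%) and 88 lower (59.9%) in the mature zone. The elongation average lay between those of the 2 ends in 71 profiles, above both in 63 and below both in 13. A stepwise fall, in which the ends differed and the elongation zone lay between them, was seen in 45 profiles, and a stepwise rise in 23. This definition does not require that either step pass. Both steps passed in 16 of these falls and in 1 of these rises, and neither step in 6 of each. In 29 profiles the elongation zone was above both ends with both steps past the threshold, and in none was it below both in this way, though 1 profile was without moderation of the SD. The other 50 met none of these definitions.

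The steps were then counted for rises and falls apart. Of the 40 rises, 14 passed in the first step and not in the second, 15 in the second and not in the first, 5 in both and 6 in neither. Of the 69 falls, 35 passed in the second step and not in the first, 6 in the first alone, 22 in both and 6 in neither. Several risers with high signal passed in the first step alone. The miR408a and miR408b-3p profile differed by 3.61 in the first step (adjusted p = 0.000787) and by -0.02 in the second (adjusted p = 0.977), and the 11 miR395 3p members by 2.01 (adjusted p = 0.000419) and -0.11 (adjusted p = 0.804). A late rise from low levels was that of miR827-5p, with 1.18 in the meristem, 1.15 in the elongation zone and 2.68 in the mature zone (1.5, SE 0.19, adjusted p = 1.24e-05). Among the fallers, miR394a/b-5p did not pass in the first step (-0.21, adjusted p = 0.932) and in the second fell by 4.25 (adjusted p = 0.0018). The miR319a/b/c/d-3p and miR166n-5p profiles fell in both steps. The first step was -4.82 for miR319a/b/c/d-3p and -4.60 for miR166n-5p, and the second was -3.34 and -4.54 in the same order.

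**Figure D3:**
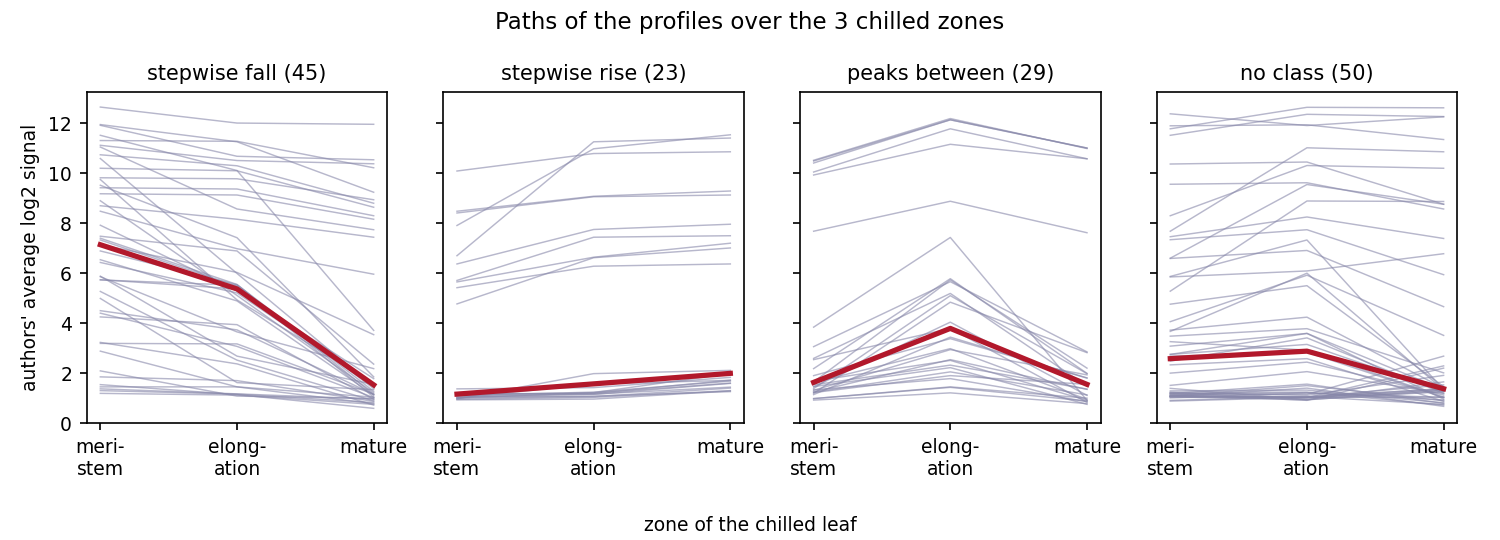
The authors' average log2 signal of each profile (thin lines) in the 3 zones of the chilled leaf, split into stepwise fall (45), stepwise rise (23), peaks between (29) and no class (50), with the median of each class as a thick line. Most stepwise risers run along the bottom of the scale, since 10 of the 23 reach log2 4 in any zone, against 35 of the 45 stepwise fallers.

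Most profiles that peaked in the elongation zone were low at both ends, as was a smaller majority of all profiles. Of the 29, 23 were under log2 4 in both the mature zone and the meristem, and 14 reached log2 4 in the elongation zone. Of all 147 profiles, 53 were under log2 2 at both ends, and another 26 had their higher end from log2 2 to under 4. The miR156e-3p level stood at 1.65 in the meristem, 5.73 in the elongation zone and 2.20 in the mature zone, with a first step of 4.08 (adjusted p = 8.44e-05) and a second of -3.53 (adjusted p = 0.00017). A like course was that of miR156l-3p, at 2.18, 5.78 and 1.99, and that of miR399f-5p, at 1.38, 5.10 and 1.98. The 3p arms of miR167, which are opposite to its guide, were split. The miR167e-3p level stood at 1.19, 4.84 and 2.82, so that it peaked and still rose over the span (1.63, SE 0.42, adjusted p = 0.00395). The miR167d-3p level rose to 7.43 between ends of 3.84 and 0.91, and miR166h-5p to 5.19 between ends of 2.59 and 1.48. The miR162-5p level stood at 3.06, 5.66 and 2.85, with steps of 2.60 (adjusted p = 0.0167) and -2.81 (adjusted p = 0.00782). At high levels, all 4 miR164 5p profiles, which target NAC factors such as those that bound organs, peaked. Their averages lay close together in each zone, and whether the array tells them apart was not tested. The miR164h-5p level stood at 10.52, 12.19 and 10.99, with steps of 1.67 (adjusted p = 0.00375) and -1.20 (adjusted p = 0.0181), and the profile of miR164a/b/c/d/g-5p at 10.41, 12.14 and 11.01. The peak class rests on the deposited scaling. With quantile normalization 2 of the 29 profiles still peaked, miR167d-3p and miR166h-5p, and with median subtraction these and miR156l-3p.

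The 2 arms of a hairpin often moved by unequal amounts. Both arms were in the table for 61 pairs of a guide profile and an opposite-arm profile, in which several pairs share a guide profile. In 27 pairs both arms passed in the same direction and in 6 in opposite directions. In each of these 6 but miR167d, 1 arm was under log2 2 at both ends. Most of the 61 pairs held an arm that stayed under log2 4 at both ends. In 14 pairs both arms reached log2 4 at their higher end, and as deposited both passed in the same direction in all 14. With quantile normalization this held in 9 of the 14, and with median subtraction in 7, where 1 pair, miR390a/b, passed in opposite directions. These 14 pairs share 9 guide profiles, and 8 of them are miR166 pairs with 4 guide profiles. In most of the 14 the opposite arm reached log2 4 in the meristem alone, as miR166n-5p did (10.59, and 1.45 in the mature zone). Such an arm was kept through the end where it is high, so these 14 pairs cannot test how the arms compare in direction or size. The opposite arm had the lower difference in 40 of the 61 pairs and in 13 of the 14, in which the exception was miR394a/b, with -4.46 for the 5p guide and -3.30 for the 3p arm. In the miR390a/b pair the opposite arm stood at 1.85 in the mature zone and 9.52 in the meristem, beside 10.22 and 11.31 for the guide. In the miR171d/e pair, of a family that targets GRAS factors, the 5p arm stood at 1.34 and 5.87 (-4.53), beside 11.35 and 11.90 for the 3p guide profile (-0.55). The fall of miR171d/e-5p did not pass with quantile normalization (adjusted p = 0.0508) or median subtraction (adjusted p = 0.0784), and the guide turned to 1.13 with median subtraction. Opposite directions were seen for miR167d, whose 5p guide profile differed by 3.18 and whose 3p arm by -2.93, the second of which did not pass with median subtraction (-1.25, adjusted p = 0.0929). This guide profile is shared with miR167a/b/c. In the first step both rose, by 3.34 for the guide profile and 3.59 for the 3p arm. They parted in the second step, with -0.16 and -6.52 in the same order. Whether probe response at high signal has a part in the smaller differences of guides with high signal was not tested.

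**Figure D4:**
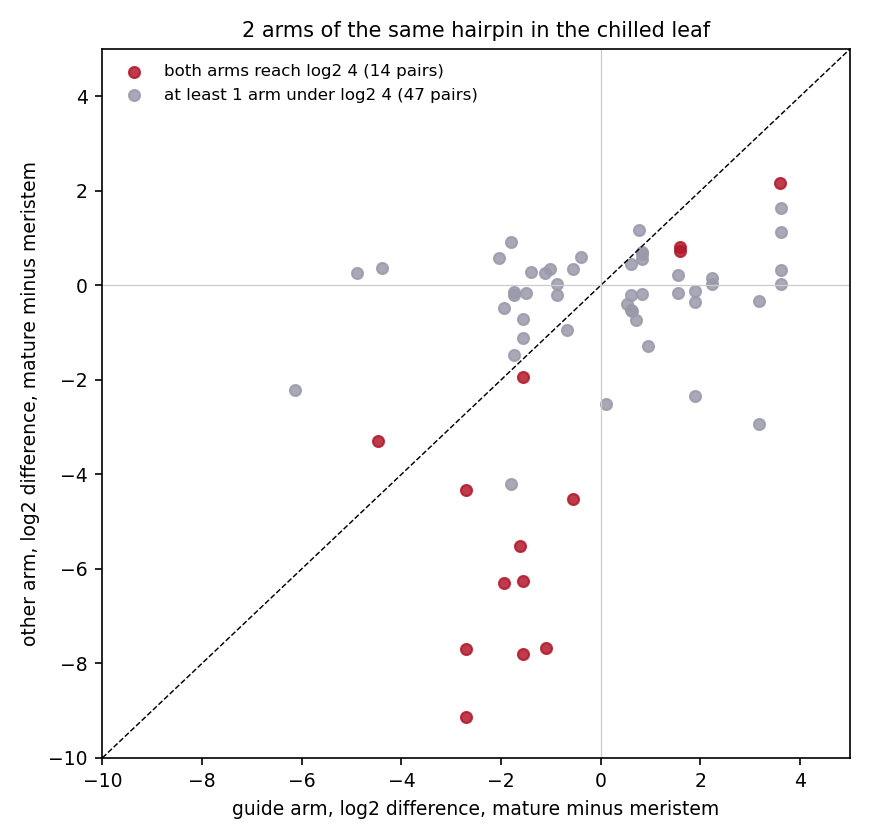
Log2 difference of mature minus meristem in the chilled leaf for the opposite arm (vertical axis) against the guide arm (horizontal axis) of the same hairpin, for 61 pairs, with equal differences on the dashed line. Of the 14 pairs in which both arms reach log2 4 (red), 13 lie below the line. Most of these opposite arms reach log2 4 in the meristem alone, so the count cannot test how the arms compare.

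Hairpins that lie close together did not always move together. Of the 157 miRNA genes named by the authors, 150 matched the RefSeq annotation of the Zm-B73-REFERENCE-NAM-5.0 assembly, where 29 pairs of them lie within 10 kb of each other, most of them miR395 genes with identical values. The neighbours miR166k and miR166m both fell, with -7.69 and -6.29 in the 5p arm and -2.71 and -1.94 in the 3p arm, the last of which did not pass with median subtraction (-0.26). The neighbours miR399a and miR399g moved apart as deposited, with a rise of 1.55 in the profile of miR399a-3p, shared with miR399c and miR399h, and a fall in miR399g-3p (-0.67), both of whose levels were under log2 2, at 0.78 in the mature zone and 1.45 in the meristem. With median subtraction both differences were positive and passed, at 3.23 for miR399a/c/h-3p and 1.01 for miR399g-3p. The second had to turn, since this scaling adds the same amount to every difference, and the fall was smaller than that amount.

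The same span in control leaves was the closest comparison, and few profiles passed the test of a difference between chilled and control leaves. In control leaves 81 of the 147 profiles passed for the mature zone against the meristem (55.1%), 23 of them higher (15.6%) and 58 lower (39.5%) in the mature zone. Of these, 71 also passed in chilled leaves, which is 87.7% of the control calls, beside 74.1% of all profiles that passed in chilled leaves. The same 71 are 65.1% of the chilled calls, beside 55.1% of all profiles that passed in control leaves. In 70 of the 71 the direction was the same. The difference between the chilled and the control span was tested for every profile, and 11 passed (7.48%). Of these, 3 had a higher (2.04%) and 8 a lower (5.44%) difference in chilled leaves. At an unadjusted p under 0.05 there were 24. Of the 38 profiles that passed in chilled leaves alone, 3 passed this test, so the larger number of chilled calls does not by itself show a difference.

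In 4 profiles a fall common to both kinds of leaf was deeper in chilled leaves, where the mature level was lower. The shared profile of miR172a and miR172b/c/d-3p stood in chilled leaves at 1.78 in the mature zone and 7.92 in the meristem, and in control leaves at 4.41 and 6.74, so that the spans differed by -3.81 (SE 0.84, adjusted p = 0.0119). The miR159e-3p level stood at 1.53 and 6.43 in chilled leaves and at 4.56 and 5.79 in control leaves (-3.67, SE 0.64, adjusted p = 0.00771). The miR166b/d-5p profile stood at 3.71 and 11.52 in chilled and at 6.79 and 11.17 in control leaves (-3.43, SE 0.68), and miR390a/b-3p at 1.85 and 9.52 in chilled and at 4.80 and 9.32 in control leaves (-3.15, SE 0.64), each with an adjusted p of 0.00771. With quantile normalization these last 2 did not pass (adjusted p = 0.195 and 0.134).

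The other profiles with a lower span in chilled leaves differed in course. The miR399d-3p level fell in chilled leaves, with 1.46 in the mature zone and 4.76 in the meristem, while it stood at 3.83 and 4.20 in control leaves, where the difference did not pass (-2.93 between the spans, SE 0.60, adjusted p = 0.00771). The miR166h-5p level fell in chilled leaves, with 1.48 and 2.59, and rose in control leaves, with 4.61 and 3.08 (-2.64, SE 0.51, adjusted p = 0.00771), though the chilled difference turned to 0.17 with quantile normalization and 0.57 with median subtraction. The miR169m-3p level stood at 2.01 and 3.48 in chilled leaves and at 5.27 and 4.48 in control leaves (-2.26, SE 0.61, adjusted p = 0.0377). The rise of miR396c/d was smaller in chilled leaves, with 11.41 and 6.70 beside 11.80 and 3.70 in control leaves (-3.39, SE 0.84, adjusted p = 0.0222), and here it was the meristem level that lay further apart.

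The 3 remaining profiles had a higher span in chilled leaves. The miR399a/c/h-3p profile stood at 7.20 in the mature zone and 5.65 in the meristem of chilled leaves, and at 5.61 and 5.13 in control leaves (1.07, SE 0.30, adjusted p = 0.0465). The miR827-5p level stood at 2.68 and 1.18 in chilled leaves and at 1.84 and 1.27 in control leaves (0.93, SE 0.26, adjusted p = 0.0465). The miR160f-3p level stood at 7.62 and 7.68 in chilled leaves, and at 7.01 and 8.42 in control leaves, where it fell (1.35, SE 0.32, adjusted p = 0.0201). With the SD enlarged by 25% none of these 3 passed, and of the 11 profiles 5 did, namely miR159e-3p, miR166b/d-5p, miR390a/b-3p, miR399d-3p and miR166h-5p. With quantile normalization neither miR160f-3p (adjusted p = 0.205) nor miR169m-3p (adjusted p = 0.702) passed.

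**Figure D5:**
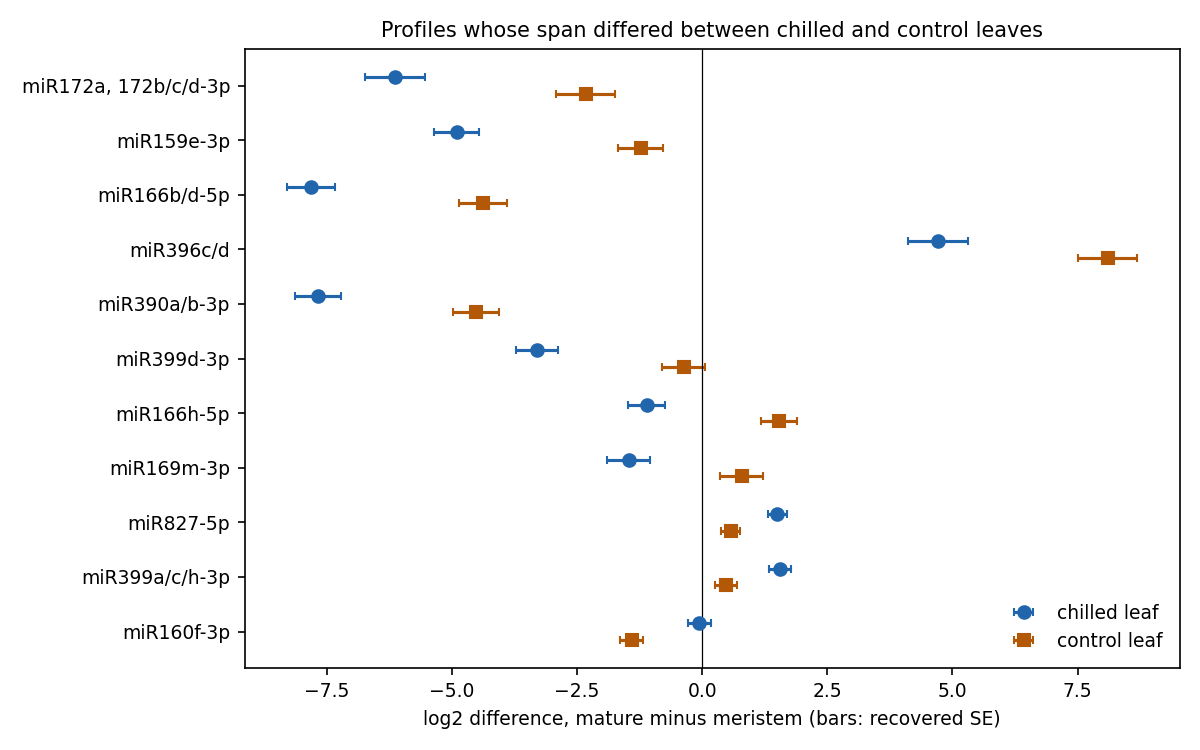
Log2 difference of mature minus meristem in chilled leaves (circles) and control leaves (squares), with bars of 1 recovered SE, for the 11 profiles whose spans differed at an adjusted p under 0.05. In 8 profiles the chilled value lies to the left of the control value, as for miR172a and miR172b/c/d-3p at -6.14 and -2.33, and in 3 it lies to the right.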

How the data were processed

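Total RNA of 18 samples was labelled with a biotin tailing and ligation kit, 10 µg per sample, and hybridized to miRNA arrays, per the labels' protocols. The submitters' processing notes name Affymetrix Expression Console. How the arrays were normalized and summarized is not given in the sources used here. Per the file headers, the authors deposited log2 values that average the signal of a group by a bi-weight method, with an ANOVA p-value and an FDR p-value over all conditions.

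The residual SD of each profile was worked out from the ANOVA p-value the authors deposited, read as an F statistic on 5 and 12 degrees of freedom. Variances were moderated with squeezeVar of limma 3.58.1 in R 4.3.3 (prior degrees of freedom 1.78, total 13.78), and contrasts of averages were tested two-sided. This treats the deposited averages as means and assumes an ordinary ANOVA with equal spread. The planned fit over single arrays could not be made, and arrays give no read depth, so their number limits the precision. What the p-values measure is array-to-array spread, which may be partly technical, since shared seedlings or pools are not stated.

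Profiles named in the text were chosen by rule. The rule took the 12 largest rises and the 12 largest falls at log2 4 or more, and the opposite arms of their hairpins. It took the 8 profiles with the highest mean signal over the chilled zones and the 6 peaks with the largest smaller step. Also taken were up to 6 differences between chilled and control spans in each direction and the members of lists of 4 or fewer. From each family came the guide or armless profile with the highest mean signal over the chilled zones. Named beside these, after their values were seen, were miR169m-3p, miR396a/b-5p, miR396e/f-5p, miR398b-5p, miR169m/n/q-5p, miR171d/e-5p and miR399g-3p. Family lists and guide arms were set by family number from general knowledge. The members, lists and tests were chosen with earlier results of these data known. Alternatives were quantile normalization, median subtraction, no moderation, 16 residual degrees of freedom, p at the upper end of its rounding, all 228 entries, a minimum of log2 4 and the SD enlarged by 25%. With quantile normalization and median subtraction the SD worked out from the deposited averages was kept. Quantile normalization rescales the averages unevenly, so the adjusted p-values of its moderated tests are approximate.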

Additional observations from a re-analysis of the deposited data

Results flagged for a closer look

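These results stand apart because the difference between mature zone and meristem itself differed between chilled and control leaves by limma's moderated test of the interaction. There were 8 profiles with a lower span in chilled leaves, at -3.81 for the shared miR172a and miR172b/c/d-3p profile, -3.67 for miR159e-3p, -3.43 for miR166b/d-5p, -3.39 for miR396c/d, -3.15 for miR390a/b-3p, -2.93 for miR399d-3p, -2.64 for miR166h-5p and -2.26 for miR169m-3p. A higher span in chilled leaves was found for miR160f-3p (1.35), miR399a/c/h-3p (1.07) and miR827-5p (0.93). No value of a single array was analysed, so whether 1 array lies far from the others of its group was not tested.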

How the results depend on the processing

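Scaling moved the directions and the path classes, and the number of calls moved by over 1.5 times in the settings given here. For the mature zone against the meristem 109 profiles passed as deposited, 59 with a minimum of log2 4 (fewer profiles tested) and 177 with all 228 entries, where identical entries count again. All entries gave 118 calls for the elongation zone against the meristem. For the mature against the elongation zone 67 passed with quantile normalization and 48 with the minimum. The difference between chilled and control spans passed in 11 profiles, and in 29 with quantile normalization, 19 with all entries, 5 with 16 residual degrees of freedom and 5 with the SD enlarged by 25%. Stepwise falls numbered 16 with median subtraction and 70 with all entries, beside 45. Stepwise rises numbered 35 with quantile normalization, 37 with median subtraction, 35 with all entries, 10 with the minimum and 12 with the larger SD, beside 23. Peaks numbered 2, 3, 14 and 16 with quantile normalization, median subtraction, the minimum and the larger SD, beside 29. Dips numbered 4 with quantile normalization, 44 with median subtraction and 1 without moderation, beside 0. Among the 73 profiles chosen by rule, the span difference turned positive with quantile normalization for miR166h-5p (0.17), miR160f-3p (0.50), miR156l-3p (2.30), miR162-5p (3.09) and miR399c-5p (0.38). With median subtraction it did so for miR166h-5p (0.57), miR160f-3p (1.62), miR390a/b-5p (0.59), miR156l-3p (1.49), miR168a-3p (0.69), miR168b-3p (0.42), miR159c/d-3p (0.99), miR528a/b-5p (1.56), miR171d/e/i/j-3p (1.13), miR166a-3p (0.07), miR166b/c/d/g/h/i-3p with miR166e/f (0.12), miR395b-5p (1.34), miR395n-5p (1.57), miR169l-3p (0.39), miR162-5p (1.47), miR162-3p (0.80), miR399c-5p (1.51) and miR167c-3p (1.35). The cause was not tested. Only quantile normalization and median subtraction can move the differences between chilled and control spans, and median subtraction moves all of them by the same amount. That amount is too small to turn any of the 11. The medians of the mature and meristem columns were 1.55 and 3.23 in chilled leaves, and 1.68 and 3.33 in control leaves. With quantile normalization, the only setting that could turn them, no such difference changed sign in the 11 profiles. The other settings leave the differences as they are, so they cannot test the sign. Leaving out replicates was not run, because the table holds group averages only. No paired analysis was possible because the columns carry no replicate numbers. The limits are the 3 arrays per group and the preselection of the table, under which the adjusted p-values do not strictly hold their error rate.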
